A study of Mus musculus with 6 samples.

Results

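The platelet-derived growth factor (PDGF) genes comprise 4 ligand genes, Pdgfa, Pdgfb, Pdgfc and Pdgfd, and 2 receptor genes, Pdgfra and Pdgfrb. They were taken by symbol from the 19877 genes of the deposited table, and all 6 were found. All 6 also passed the filter for testing, as did 10311 genes in all. Mouse cells labelled ADSCs, of genotype WT, were sequenced in 2 groups of 3 libraries. The control cells were treated with a scrambled sequence (the scrambled group) and the others with a short hairpin RNA against Ifit1 (the knockdown group), and each of 3 labelled batches held 1 library of either kind. ADSC usually stands for stem cells derived from adipose tissue. The labels give neither the sex nor age of the source animals, nor say whether libraries came from separate cultures, so p-values measure the spread between these libraries, which may be technical. The question was how the transcripts of the PDGF system differ when Ifit1, an interferon-induced RNA-binding protein, is knocked down.

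PDGFs are dimers of disulfide-linked chains that drive the growth and migration of mesenchymal cells. PDGF-A and PDGF-B are cut by furin-like convertases inside the cell, whereas PDGF-C and PDGF-D leave the cell as latent proteins whose CUB domain must be removed by plasminogen activators or other proteases. The receptor PDGFR-alpha binds the A, B and C chains, and PDGFR-beta binds B and D chains. Both receptors are tyrosine kinases of class III, and both are widely used as markers of stromal cells, with PDGFR-beta also marking the mural cells of vessels.

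Both receptors and the ligands Pdgfb and Pdgfc were lower in knockdown libraries, and the ligand Pdgfa was higher. Pdgfrb fell from 24.1 ± 1.29 to 15.2 ± 2.04 FPKM and Pdgfra from 1.86 ± 0.185 to 1.09 ± 0.146 FPKM (SD, n = 3 each). Pdgfa rose from 3.33 ± 0.0711 to 4.45 ± 0.383 FPKM. Pdgfd did not pass the test. In all, 1 of the 6 genes rose and 4 fell, with a median log2 fold change of −0.35, beside 19.8% of all tested genes called higher, 31.1% called lower (51.0% in either direction) and a median of −0.05. The groups did not overlap for 5 of the 6 genes (1 higher, 4 lower), beside 61.1% of tested genes (23.8% higher, 37.3% lower). Calls were thus common across the table, and the size of each change is given below beside that of genes of like level. The 4 genes that fell include Pdgfb, which passed the filter only through its 3 scrambled libraries. Pdgfb could hardly have been tested without being lower in knockdown.

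Ifit1 itself stood at 4.90, 3.75 and 4.97 FPKM in scrambled libraries 1, 2 and 3 and at 1.76, 1.48 and 1.51 FPKM in knockdown libraries 1, 2 and 3. It was lower in all 3 libraries labelled as knockdown. The libraries held between 32.2 and 40.6 M recovered fragments and no library of a group was a copy of another (3.16 to 12.5 chi-square units per gene between them). The stromal label was checked on 16 listed markers, of which 15 were in the table and 14 tested: Col1a1 averaged 1220 and 676 FPKM, Thy1 52.1 and 38.9 FPKM and Cd44 82.6 and 117 FPKM in scrambled and knockdown libraries, while Nt5e was at most 0.351 FPKM. Of the 14 tested stromal markers 4 rose and 7 fell, beside 19.8% higher and 31.1% lower over all tested genes. In bulk RNA, fewer cells of a type and less RNA per cell cannot be told apart. Endothelial markers summed to between 4.97 and 5.54 FPKM in scrambled and between 3.55 and 3.90 FPKM in knockdown libraries, nearly all of it Egfl7, with 7 of the 9 measured genes under 0.1 FPKM everywhere. The 7 measured macrophage markers summed to between 4.32 and 5.44 FPKM in scrambled and between 5.79 and 5.87 FPKM in knockdown libraries. Cd14 and Cd68 made up nearly all of this sum. The scrambled mean of Cd14 was 2.96 FPKM, against a knockdown mean of 3.90 FPKM, and its rise passed the test (limma adjusted p = 0.00927). Cd68 did not pass, its scrambled mean being 1.92 FPKM and its knockdown mean 1.87 FPKM. The defining Ptprc and Itgam were at 0 in every scrambled library and in all but 1 knockdown library each. The part of these shifts in the results was not tested.

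In scrambled libraries the order of levels, which FPKM gives per kilobase, was Pdgfc (29.0 FPKM), Pdgfrb (24.1), Pdgfa (3.33), Pdgfra (1.86), Pdgfb (1.34) and Pdgfd (1.27). Neighbours in this order had separate ranges over libraries except Pdgfb and Pdgfd, although the lowest Pdgfra value (1.68 FPKM) lay close to the highest Pdgfb value (1.65 FPKM). In knockdown libraries the order was Pdgfc (26.0 FPKM), Pdgfrb (15.2), Pdgfa (4.45), Pdgfd (1.18), Pdgfra (1.09) and Pdgfb (0.763), and of these neighbours Pdgfd and Pdgfra overlapped. The order depends on the length by which the authors divided. The length implied for Pdgfa was 6888 bases, whereas its longest coding transcript in GENCODE M21 has 2060 bases, and on that transcript Pdgfa would stand at 11.1 and 14.9 FPKM in scrambled and knockdown libraries. For Pdgfrb the implied length was 6163 bases against a transcript of 5423 bases, and for Pdgfc 3612 against 3521 bases.

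**Figure D1:**
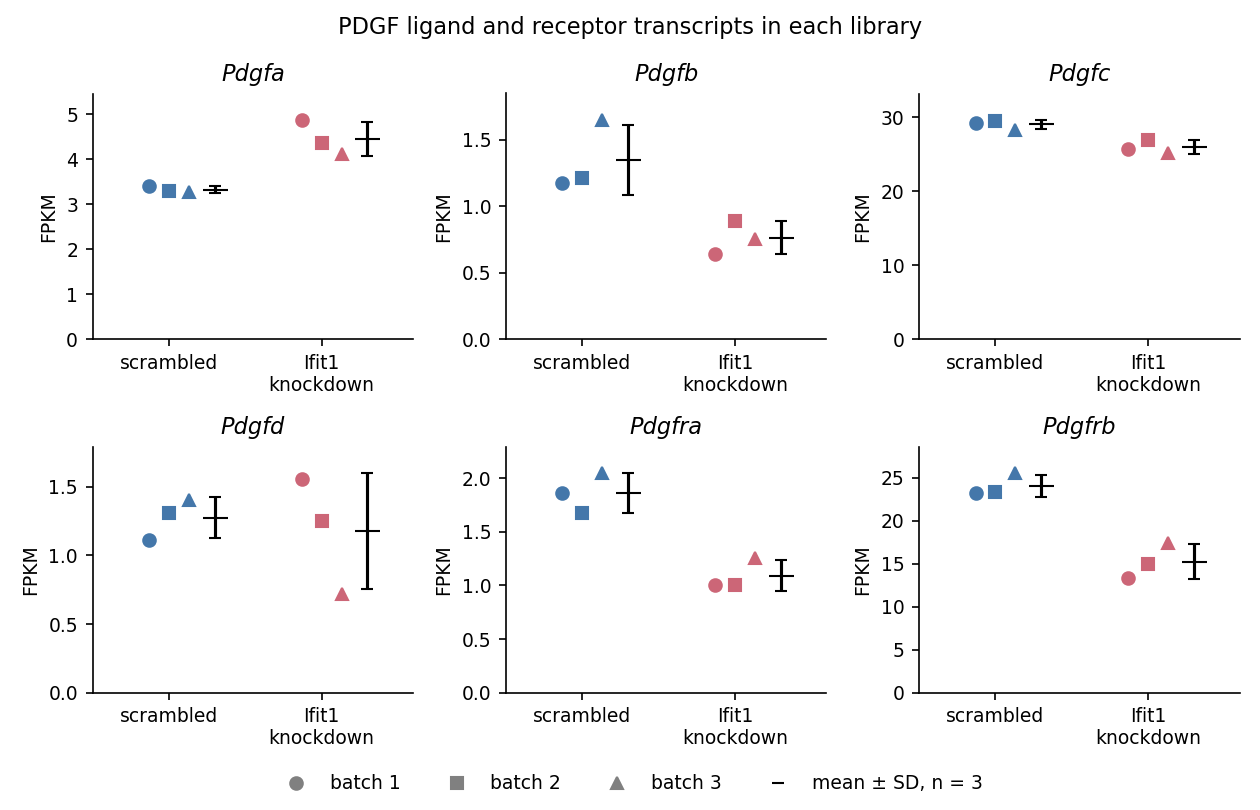
FPKM of each PDGF gene in the 3 scrambled (blue) and 3 Ifit1 knockdown (red) libraries, with the batch as the marker shape and the mean ± SD (n = 3) in black; every axis starts at 0. The groups are apart for all genes except Pdgfd, whose knockdown libraries span 0.722 to 1.56 FPKM.

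Pdgfrb, the receptor for PDGF-B and PDGF-D, was by far the more abundant receptor. It stood at 23.3, 23.3 and 25.5 FPKM in scrambled libraries 1, 2 and 3 and at 13.3, 15.0 and 17.4 FPKM in knockdown libraries 1, 2 and 3. All 3 knockdown libraries lay below all scrambled ones, and knockdown library 3 lay nearest to them. The log2 fold change was −0.65 ± 0.08 (95% interval −0.84 to −0.46, limma adjusted p = 0.00039), and the log2 differences were −0.78, −0.62 and −0.54 inside batches 1, 2 and 3. Between 2973 and 5929 fragments per library lay behind these values. Of the 2979 tested genes with a mean of 10 to 30 FPKM, 29.0% were called lower and 1.75% had a fold change as low as that of Pdgfrb.

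Pdgfra, the receptor for PDGF-A and PDGF-C and a common marker of stromal progenitors, was the less abundant receptor. It stood at 1.86, 1.68 and 2.04 FPKM in scrambled libraries 1, 2 and 3 and at 1.01, 1.01 and 1.26 FPKM in knockdown libraries 1, 2 and 3. The groups did not overlap, and knockdown libraries 1 and 2 lay just above the filter of 1 FPKM. The log2 fold change was −0.57 ± 0.10 (95% interval −0.80 to −0.35, limma adjusted p = 0.00161), and −0.65, −0.53 and −0.53 within batches 1, 2 and 3. The fall was smaller with the trend of fold change on level removed (−0.36 with cyclic loess, limma adjusted p = 0.0114). Low genes as a whole were lower in knockdown libraries: of 1677 tested genes with a mean of 1 to 3 FPKM, 37.3% were called lower and 6.32% higher, with a median log2 fold change of −0.17, and 13.3% had a fold change as low as that of Pdgfra.

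The sequence before the start of Pdgfra is shown because its window could be searched for interferon-responsive motifs. Ifit1 is an interferon-stimulated gene, but here it was the target of the hairpin, so its fall is no measure of interferon signalling. Pdgfra occupies chromosome 5 from 75152292 to 75198215 (GRCm38, GENCODE M21, plus strand), and its longest coding transcript has 23 exons. The 250 bases before the RefSeq start (GRCm38.p6, chr5:75152001-75152250, plus strand) read, 5′ to 3′:
Pdgfra: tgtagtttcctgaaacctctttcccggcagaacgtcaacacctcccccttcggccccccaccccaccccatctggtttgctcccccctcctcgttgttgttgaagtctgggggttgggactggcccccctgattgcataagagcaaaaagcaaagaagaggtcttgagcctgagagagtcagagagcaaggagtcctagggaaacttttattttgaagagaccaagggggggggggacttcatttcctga
Searched on both strands, this window held no match to the core of the interferon-stimulated response element (GAAA, any 2 bases, GAAA, in 2.98% of all 32851 windows of this length), to the STAT-binding GAS motif (TTCNNNGAA, 7.02%), to AP-1 (TGANTCA, 6.75%), to the GC box (GGGCGG, 32.7%), to the TATA box (TATAAA, 12.4%) or to the SRF-binding CArG box (1.47%), and so it has no capitals. A window without these letters says nothing about the factors. Windows were found for 4 of the 6 genes, the others being Pdgfa, Pdgfc and Pdgfd.

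The proportion of the receptors to each other did not separate the groups. Pdgfrb was 12.5, 13.9 and 12.5 times Pdgfra in scrambled libraries 1, 2 and 3 and 13.2, 14.9 and 13.8 times Pdgfra in knockdown libraries 1, 2 and 3, and these ranges overlap. The log2 ratio of Pdgfra to Pdgfrb moved by −0.11 (two-sided exact permutation test p = 0.3, also adjusted over 3 ratios, where 0.1 is the smallest p that 3 libraries against 3 allow). With 0.5 added to each FPKM the difference was 0.08, so its direction was not settled. A difference between the receptors in their fall was thus not detected, which does not show that they fell equally.

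Pdgfc, a ligand of PDGFR-alpha secreted as a latent protein, was the most abundant ligand. It stood at 29.3, 29.5 and 28.3 FPKM in scrambled libraries 1, 2 and 3 and at 25.8, 27.0 and 25.2 FPKM in knockdown libraries 1, 2 and 3. The groups did not overlap, but the highest knockdown and the lowest scrambled library were close. The log2 fold change of −0.16 ± 0.04 (95% interval −0.24 to −0.07, limma adjusted p = 0.00754) was the smallest of those that passed, with −0.18, −0.13 and −0.17 within batches 1, 2 and 3. The call was lost under median centring (−0.09, limma adjusted p = 0.085). Of tested genes with a mean of 10 to 30 FPKM, 23.8% had a fold change as low.

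The sequence before Pdgfc is shown because it holds a CArG box, the binding motif of the serum response factor SRF, whose own transcript, looked at after its values were seen, differed between the groups. Pdgfc lies on chromosome 3 at 81036416 to 81214040 of GRCm38, plus strand, with 6 exons. The 250 bases before its RefSeq start (GRCm38.p6, chr3:81036166-81036415, plus strand), with the CArG box in capitals, read 5′ to 3′:
Pdgfc: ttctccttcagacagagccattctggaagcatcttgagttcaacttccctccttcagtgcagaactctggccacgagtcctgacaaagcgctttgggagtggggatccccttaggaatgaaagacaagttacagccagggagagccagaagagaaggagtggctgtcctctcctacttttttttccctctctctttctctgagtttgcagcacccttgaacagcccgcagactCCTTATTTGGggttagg
The box spans 17 to 8 bases before the start, a motif found in 1.47% of the 32851 windows, and none of the other 5 motifs named for Pdgfra was matched. Srf averaged 22.5 ± 0.996 FPKM in scrambled and 31.5 ± 1.94 FPKM in knockdown libraries, a rise of 0.47 ± 0.05 on the log2 scale (limma adjusted p = 0.000164), while Pdgfc fell. The match is a description of the letters, and binding there was not measured.

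Pdgfa, the other ligand specific to PDGFR-alpha, was the only PDGF gene that rose. It stood at 3.41, 3.29 and 3.28 FPKM in scrambled libraries 1, 2 and 3 and at 4.87, 4.36 and 4.12 FPKM in knockdown libraries 1, 2 and 3. Scrambled libraries were tightly grouped and all 3 knockdown libraries lay above them, library 1 the farthest. The log2 fold change was 0.37 ± 0.07 (95% interval 0.22 to 0.52, limma adjusted p = 0.00217), and 0.46, 0.36 and 0.29 within batches 1, 2 and 3. Rises were uncommon at this level: of 3177 tested genes with a mean of 3 to 10 FPKM, 10.9% were called higher and 2.86% had a fold change as high. Pdgfa lies on chromosome 5 at 138976014 to 138997370 of GRCm38, minus strand. The windows before its annotated starts were rich in G and C (66.4% and 72.4%, beside a median of 52.4% over all windows) and held 1 and 2 GC boxes. They are not printed, since both overlap annotated exons of other Pdgfa transcripts. An antisense RNA, 6330403L08Rik, also begins in the window with 2 GC boxes, and the strand setting of the counting is not known.

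Pdgfb, the chain that binds both receptors, was near the lower limit of the test. It stood at 1.18, 1.21 and 1.65 FPKM in scrambled libraries 1, 2 and 3 and at 0.641, 0.891 and 0.758 FPKM in knockdown libraries 1, 2 and 3. The groups did not overlap. Pdgfb passed the filter only through its 3 scrambled libraries, so it could hardly have been tested without being lower in knockdown. The log2 fold change was −0.54 ± 0.13 (95% interval −0.83 to −0.26, limma adjusted p = 0.00675), and −0.56, −0.30 and −0.77 within batches 1, 2 and 3. Between 80 and 212 fragments lay behind each value, and the call was lost under quantile normalization (−0.24, limma adjusted p = 0.131) and cyclic loess (−0.30, limma adjusted p = 0.0637). Without the filter the call held (limma adjusted p = 0.0303). Of tested genes with a mean of 1 to 3 FPKM, 14.7% had a fold change as low. Pdgfb lies on chromosome 15 at 79995874 to 80014977 of GRCm38, minus strand, and overlaps the antisense gene Gm41361, which averaged 0.001 FPKM in either group.

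Pdgfd, a latent ligand of PDGFR-beta, varied most of the 6 genes between knockdown libraries relative to its mean (an SD of 0.423 on 1.18 FPKM). It stood at 1.11, 1.31 and 1.40 FPKM in scrambled libraries 1, 2 and 3 and at 1.56, 1.25 and 0.722 FPKM in knockdown libraries 1, 2 and 3. The highest and the lowest of the 6 values were both knockdown libraries. The log2 fold change was −0.11 ± 0.18 (95% interval −0.51 to 0.29, limma adjusted p = 0.619), an interval that holds both rises and falls. The log2 differences inside batches 1, 2 and 3 were 0.35, −0.05 and −0.64, and without knockdown library 3 the fold change was 0.10. Pdgfd lies on chromosome 9 at 6168584 to 6378850 of GRCm38, plus strand.

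**Figure D2:**
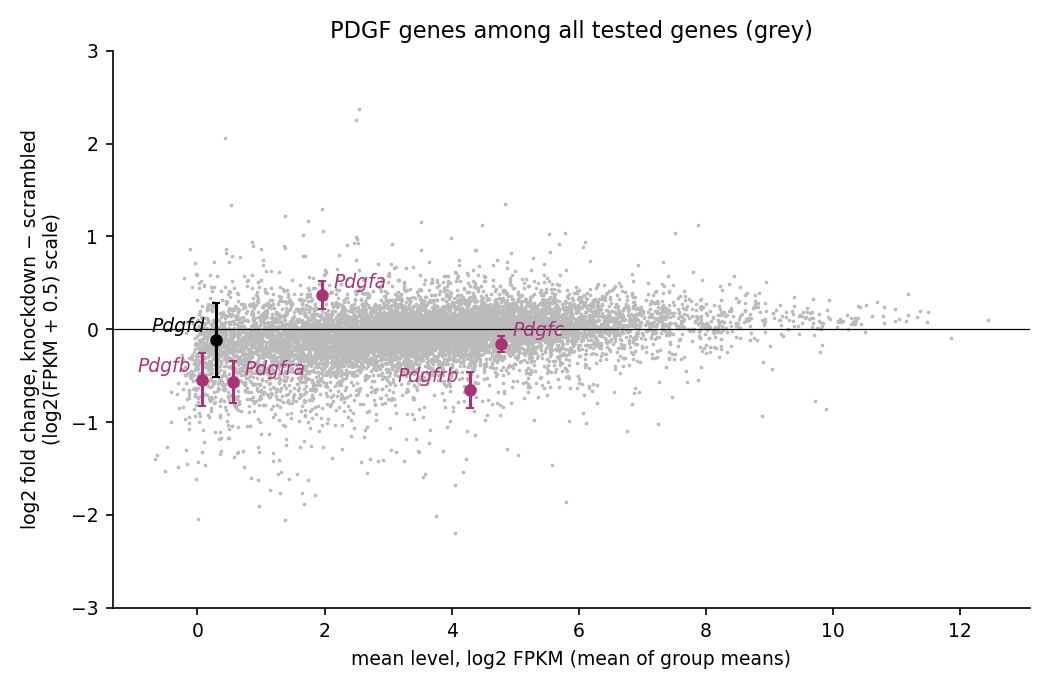
Log2 fold change against mean level (log2 FPKM) for every tested gene (grey) and the 6 PDGF genes with 95% intervals, in purple where the limma adjusted p was under 0.05 and in black for Pdgfd. Pdgfrb lies below most genes of its level at −0.65 and Pdgfa above most of its level at 0.37, whereas Pdgfb and Pdgfra lie where many low genes are also below 0.

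The mixture of ligands shifted towards Pdgfa. Sums and shares are given as descriptions. Pdgfa made up 9.74, 9.31 and 9.46% of the summed ligand FPKM in scrambled libraries 1, 2 and 3 and 14.8, 13.0 and 13.4% in knockdown libraries 1, 2 and 3. Pdgfc made up 83.0 ± 1.10% in scrambled and 80.3 ± 1.68% in knockdown libraries, with overlapping ranges. Summed ligand FPKM went from 35.0 ± 0.321 to 32.4 ± 1.41 and summed receptor FPKM from 25.9 ± 1.45 to 16.3 ± 2.17. These values carry the lengths behind the FPKM, of which that of Pdgfa is in doubt. On the longest coding transcripts, a scale chosen after seeing the data, summed ligand FPKM was 44.0 ± 0.324 in scrambled and 43.8 ± 2.14 in knockdown libraries, with overlapping ranges, so the lower ligand sum does not hold on that scale. Pdgfa then made up 25.3 ± 0.492% and 34.0 ± 1.79% of the ligands and Pdgfc 67.8 ± 0.952% and 60.9 ± 2.22%, both without overlap. Summed receptor FPKM on that scale was 29.9 ± 1.69 and 18.8 ± 2.50. With the deposited lengths the ratio of ligand to receptor FPKM was 1.39, 1.41 and 1.26 in scrambled libraries 1, 2 and 3 and 2.29, 2.10 and 1.65 in knockdown libraries 1, 2 and 3. On the log2 scale the ratio of Pdgfa to Pdgfc moved by 0.58 and that of Pdgfa to Pdgfb by 1.23. The groups did not overlap in either ratio (two-sided exact permutation test p = 0.1 each, the smallest p that 3 against 3 allows, and 0.15 adjusted over 3 ratios).

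**Figure D3:**
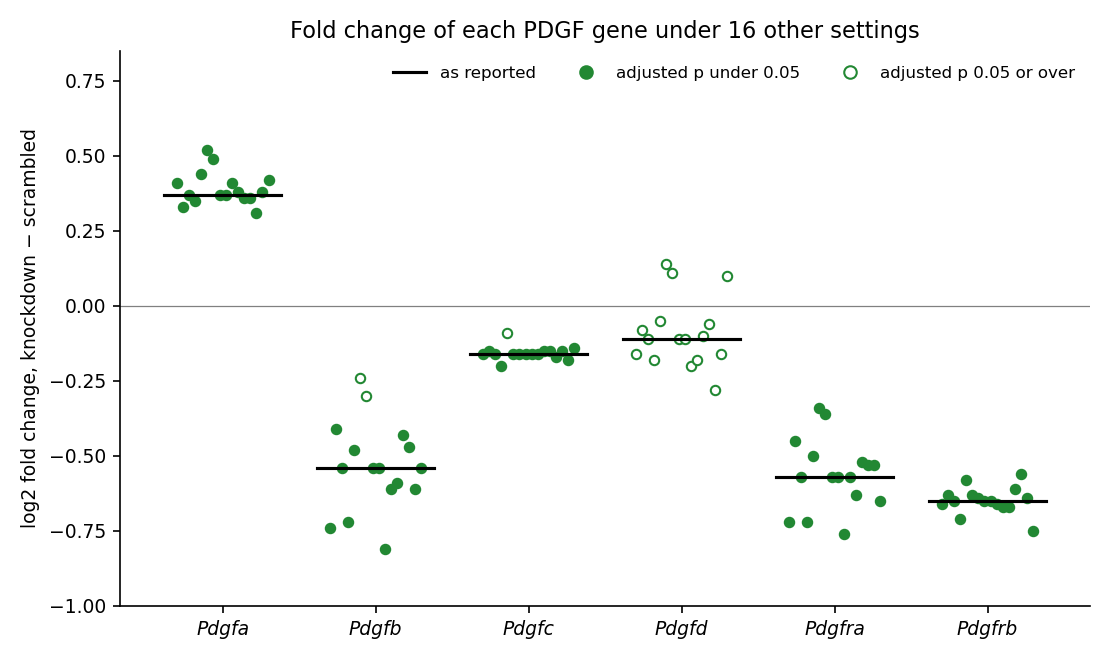
Log2 fold change of each PDGF gene as reported (black line) and under 16 other settings of filter, pseudocount, scaling, model and left-out library (circles, filled where the adjusted p was under 0.05). Pdgfa, Pdgfra and Pdgfrb kept their direction and their call under all 16 settings, Pdgfb lost its call in 2 and Pdgfc in 1, and Pdgfd was called in 0.

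Among genes of mean FPKM at least 5, those whose centred log2 levels over the 6 libraries lay closest to each PDGF gene were found by their root mean square difference. For Pdgfrb they were Fam114a1 (0.03), Mrc2, a collagen-internalizing receptor (0.03), and Psrc1 (0.04). For Pdgfra they were Osmr, the oncostatin M receptor (0.03), Cdkn2a (0.03) and Serinc3 (0.04). Timp1, an inhibitor of metalloproteinases (0.03), Phc2 (0.03) and Eaf1 (0.03) lay closest to Pdgfa. Mon2, Ppp2r5a and Wasf2 lay closest to Pdgfc, each at 0.01. The closest to Pdgfb were Decr2 (0.06), Insig1 (0.07) and Psph (0.07), and the closest to Pdgfd were Tmem60 (0.09), Nlgn4l (0.14) and Tnc (0.14). With 6 libraries in 2 groups, genes of similar fold change come out as alike.

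Plat and Plau, which can release the latent ligands, fell, and their inhibitor Serpinb2 rose. Plat, the tissue plasminogen activator that cleaves PDGF-C, went down from 33.4 ± 2.17 to 24.5 ± 1.93 FPKM (−0.44 ± 0.06 on the log2 scale, limma adjusted p = 0.000717). Plau, the urokinase that cleaves PDGF-D, went from 36.3 ± 0.799 to 30.7 ± 2.07 FPKM (−0.24 ± 0.05, adjusted p = 0.00368). Serpinb2, an inhibitor of plasminogen activators, stood at 1.80, 1.78 and 0.874 FPKM in scrambled libraries 1, 2 and 3 and at 14.6, 9.69 and 6.08 FPKM in knockdown libraries 1, 2 and 3. The knockdown libraries differed widely among themselves but all lay above the scrambled ones (2.38 ± 0.29, adjusted p = 0.000283). Furin, the convertase of PDGF-A and PDGF-B, stood at 30.1 ± 1.01 and 30.3 ± 1.53 FPKM (0.01, 95% interval −0.10 to 0.11, adjusted p = 0.925), a difference near 0 whose sign varied with the scaling. The related convertase Pcsk6 stood at 1.48 ± 0.196 and 1.82 ± 0.186 FPKM (0.23, adjusted p = 0.082) and passed with batch as a block (adjusted p = 0.0434). Of the 9 genes reported from this list 6 were tested, 1 rose and 2 fell, with a median of −0.03, near the 51.0% called over all tested genes. With Pcsk6 the count that rose was 2 under the block, median centring, quantile normalization and cyclic loess. St14, the matriptase that can also cleave PDGF-D, was at most 0.0384 FPKM, with at most 7 fragments in a library. Without the filter St14 was called lower (limma adjusted p = 0.0216), and the count that fell was 3.

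Among proteins that bind PDGFs or their receptors, Lrp1 and Sparc fell and Nrp2 rose. Lrp1, an endocytic co-receptor of PDGFR-beta, stood at 83.5, 91.0 and 86.5 FPKM in scrambled libraries 1, 2 and 3 and at 65.7, 70.7 and 65.7 FPKM in knockdown libraries 1, 2 and 3. All 3 knockdown libraries lay below the scrambled ones (log2 fold change −0.37 ± 0.04, limma adjusted p = 0.000202). Sparc, a matrix protein that binds PDGF-B, fell from 963 ± 50.5 to 816 ± 31.6 FPKM (−0.24 ± 0.04, adjusted p = 0.00176). Nrp1, a co-receptor of PDGF signalling, stood at 17.0 ± 0.560 and 16.5 ± 1.15 FPKM (−0.05, adjusted p = 0.471, with the sign turned under median centring), and its relative Nrp2 rose by 0.29. Pdgfrl, a receptor-like protein without a kinase domain, stood at 1.11, 1.23 and 1.31 FPKM in scrambled and at 0.719, 0.199 and 0.543 FPKM in knockdown libraries 1, 2 and 3 (−0.83 ± 0.19, adjusted p = 0.00584). Like Pdgfb, it passed the filter only through the scrambled libraries. Of 10 listed genes 8 were tested, 1 rose and 3 fell, with a median of −0.12, a share near the 51.0% called over all tested genes.

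The ligands of the related class III receptors were measured above the filter, but Kit and Csf1r were near 0. Of the 7 listed genes 4 were tested, and 2 rose and 1 fell (2 fell without the filter), beside 19.8% higher and 31.1% lower over all tested genes. Csf1, the macrophage growth factor, averaged 132 ± 4.08 FPKM in scrambled and 186 ± 6.14 FPKM in knockdown libraries (0.49 ± 0.03 on the log2 scale, limma adjusted p = 2.71e-05). Kitl, the stem cell factor, rose from 6.01 ± 0.444 to 8.44 ± 0.360 FPKM (0.46 ± 0.06, adjusted p = 0.000438), and Flt3l fell from 1.63 ± 0.204 to 0.849 ± 0.156 FPKM (−0.66 ± 0.11, adjusted p = 0.00154). Kit had 1 recovered fragment in each scrambled library and 0 in each knockdown library, and Csf1r was at most 0.214 FPKM. Kit is a genomic neighbour of Pdgfra, and Csf1r of Pdgfrb.

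Of 26 listed enzymes and adaptors that dock on active receptors, 25 were tested, and 2 rose and 9 fell, with a median of −0.09. The 11 called of 25 were not more than the 51.0% called over all tested genes. Stat3, a transcription factor activated by these receptors, averaged 24.5 ± 0.960 FPKM in scrambled and 15.7 ± 0.543 FPKM in knockdown libraries (−0.62 ± 0.04 on the log2 scale, limma adjusted p = 2.61e-05). Plcg1, the phospholipase that binds both receptors, fell by 0.40 and the adaptor Grb10 by 0.55, whereas the PI3-kinase catalytic subunit Pik3cb rose by 0.42. The count of those that rose was 4 under median centring and 1 without the filter, after rescaling to TPM and without scrambled library 1, scrambled library 3, knockdown library 1 or knockdown library 2.

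Of 16 attenuators of receptor signalling 15 were tested, and 3 rose and 3 fell, with a median of −0.00, beside 19.8% higher and 31.1% lower over all tested genes. Spry2 rose by 0.44 and its relative Spry1, which like Spry2 inhibits Ras-ERK signalling, fell by 0.64, from 4.52 ± 0.599 to 2.73 ± 0.460 FPKM (limma adjusted p = 0.00229). Socs3, an inhibitor of JAK-STAT signalling, fell by 0.41 and the receptor phosphatase Ptprk rose by 0.24. Under median centring 6 rose and 2 fell.

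Of 21 genes of the Ras-ERK and PI3-kinase-AKT relays, all tested, 5 rose and 11 fell, with a median of −0.12, beside 19.8% higher and 31.1% lower over all tested genes (51.0% in all). Akt1 rose by 0.29 (from 161 ± 1.01 to 197 ± 6.93 FPKM), and Hras by 0.29 and Nras by 0.23, while Foxo3, a transcription factor inhibited by AKT, fell by 0.56 (limma adjusted p = 0.000521). The count of those that fell was 7 under median centring, under quantile normalization and with cyclic loess.

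Genes that PDGF is known to induce in fibroblasts went both ways, and more of them rose than fell. Of 24 listed genes 23 were tested, and 13 rose and 4 fell, beside 19.8% higher and 31.1% lower over all tested genes. Their median was 0.25, beside −0.05 for all tested genes. Rises were more common at higher levels, with 35.7% of all genes of 30 to 100 FPKM called higher. Fosl1, a Fos family factor, averaged 47.1 ± 5.02 FPKM in scrambled and 87.3 ± 5.99 FPKM in knockdown libraries (0.89 ± 0.08 on the log2 scale, limma adjusted p = 6.32e-05), and Klf6 rose by 0.45 and Myc by 0.25. The immediate early gene Ier2 fell from 74.3 ± 5.29 to 52.1 ± 2.05 FPKM (−0.51 ± 0.05, adjusted p = 0.000126). The others called lower were Egr1 (−0.62), Junb (−0.29) and Fos (−0.27), against 13 genes called higher. Fos lost its call without the filter (limma adjusted p = 0.102). Many stimuli other than PDGF induce the genes of this list, and the labels name no PDGF treatment.

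**Figure D4:**
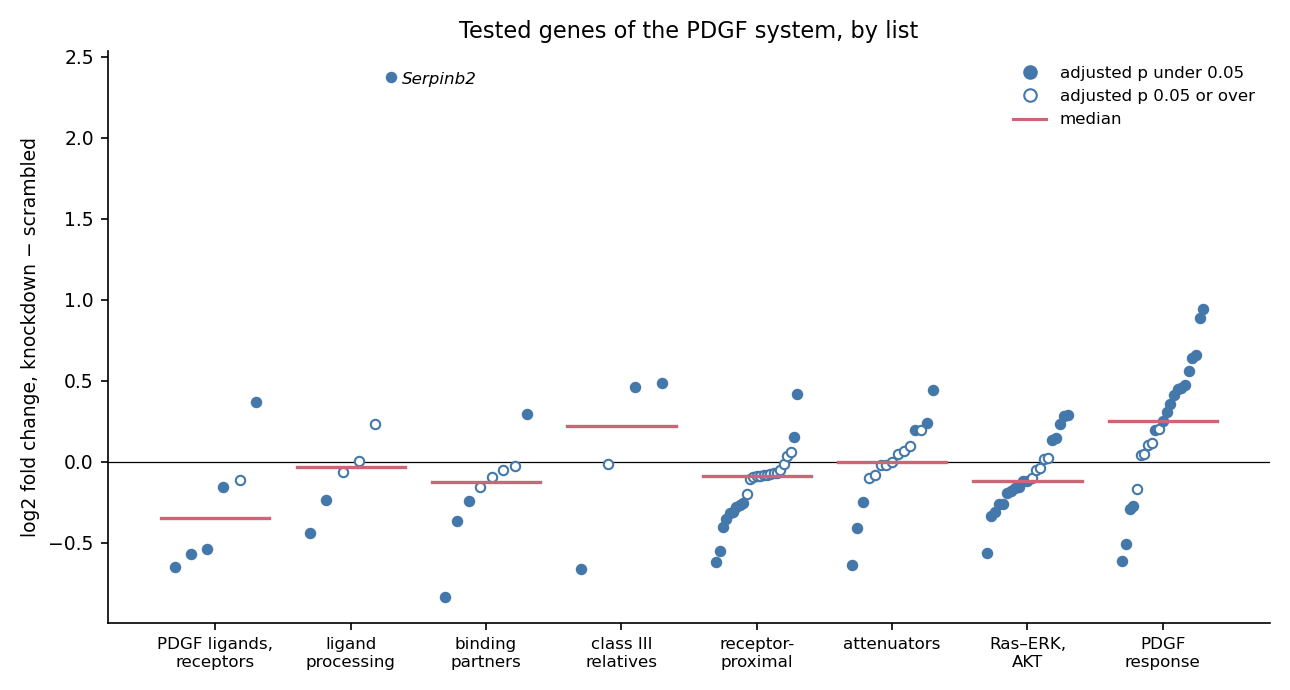
Log2 fold change of every tested gene in the PDGF family and 7 lists of its pathway (filled circles passed the limma test, red lines are medians). Serpinb2 at 2.38 stands above all others, and the response list lies mostly above 0 with a median of 0.25.

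Markers of mural cells, which carry PDGFR-beta in vessels, were mostly near 0, except Mcam and Notch3. Of 10 listed markers 7 were in the table, and Rgs5, Myh11 and Vtn were under 0.1 FPKM in every library. The 7 summed to between 17.7 and 17.9 FPKM in scrambled and between 14.5 and 18.9 FPKM in knockdown libraries, most of it Mcam, which did not pass the test (limma adjusted p = 0.204). Notch3, a receptor of mural cells, stood at 2.93, 2.68 and 3.25 FPKM in scrambled libraries 1, 2 and 3 and at 0.529, 0.607 and 0.797 FPKM in knockdown libraries 1, 2 and 3 (log2 fold change −1.60 ± 0.11, limma adjusted p = 2.61e-05). Notch3 passed the filter only through the scrambled libraries. It fell together with Pdgfrb, and its part in that result was not tested. Of the 8 adipocyte markers 5 were in the table. They summed to between 9.34 and 10.3 FPKM in scrambled and between 6.98 and 8.30 FPKM in knockdown libraries. Most of this sum was Lpl, which fell by 0.46 (limma adjusted p = 0.000455), and Pparg, which did not pass the test (limma adjusted p = 0.123). Adipoq was at 0 in every library except scrambled library 2, at 0.0217 FPKM. Of the 8 platelet markers 3 were in the table, summing to between 2.20 and 2.39 FPKM in scrambled and between 1.45 and 2.02 FPKM in knockdown libraries, and Itga2b among them fell by 0.50. Their part in the results was not tested either.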

How the data were processed

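The members and lists were chosen with earlier results of these data known. The authors deposited 1 table of FPKM values (fragments scaled to transcript length and library depth) for 19877 genes in 6 libraries. The submitters' processing notes name GRCm38, mm10 and GRCm39 with no role. The sources used here name no aligner, counter, strand setting or annotation. Whole fragments were recovered from the steps of the FPKM values for all 19877 genes (within 0.002 of a whole number) and summed to between 32.2 and 40.6 M per library. They are the smallest whole numbers that match the steps, and reads outside the listed genes are not in these sums.

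The test covered the 10311 genes that reached 1 FPKM in 3 or more of the 6 libraries. Knockdown was compared with scrambled on log2(FPKM + 0.5) with limma 3.58.1 in R 4.3.3 (variance trend, two-sided, Benjamini-Hochberg adjustment over all tested genes, threshold 0.05). Low genes have their change understated by this pseudocount. Levels are given ± SD over 3 libraries and log2 fold changes ± standard error. The fit was tested on simulated data. Ratios of members were compared with a two-sided exact permutation test over libraries. The labels give each library a batch, and each of the 3 batches holds 1 scrambled and 1 knockdown library, so the libraries are paired by label. Deviations from the group means correlated within batches at 0.09, 0.01 and 0.19 across genes. The reported fit has no batch term, and a fit with batch as a replicate block was an alternative, besides other pseudocounts, no filter, rescaling to TPM, median centring, quantile normalization, cyclic loess, no variance trend, limma-voom on the recovered fragments and leaving out each library.

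Genes named are the 6 members, Ifit1, those described of the ligand processing, binding partner and class III lists, and the 4 of smallest p in each other pathway list. For likeness, the 3 genes closest to each member over the 6 libraries were taken among genes of mean FPKM at least 5. Marker genes of other cell types are named where they show what a list holds, and genes named outside these rules were chosen after their values were seen. A gene of the ligand processing list is not reported here and is left out of that list's counts. Promoter windows are from RefSeq on GRCm38.p6 and gene models from GENCODE M21 on GRCm38.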

Additional observations from a re-analysis of the deposited data

How the results depend on the processing

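Over 16 alternatives the log2 fold change ran from 0.31 to 0.52 for Pdgfa, from −0.76 to −0.34 for Pdgfra and from −0.75 to −0.56 for Pdgfrb, with the adjusted p under 0.05 in each. Pdgfb ran from −0.81 to −0.24 and lost its call under quantile normalization (−0.24) and cyclic loess (−0.30), and Pdgfc ran from −0.20 to −0.09 and lost it under median centring (−0.09). Pdgfd, which was not called, changed sign under quantile normalization (0.14) and cyclic loess (0.11) and, over the fits that leave out 1 library, ran from −0.28 to 0.10. The difference in the log2 ratio of Pdgfra to Pdgfrb changed sign with a pseudocount of 0.5 (0.08). Furin, near 0, stood at −0.04 after rescaling to TPM, at −0.01 under quantile normalization and cyclic loess and between −0.02 and 0.05 without 1 library, and Nrp1 at 0.02 under median centring. The causes were not tested. Of 5255 called genes 2046 were higher and 3209 lower, but 3001 and 2293 under median centring, 2486 and 2256 under quantile normalization and 1540 and 4035 after rescaling to TPM. With batch as a replicate block 5229 genes were called and Pdgfrb stood at −0.65. Of the named genes only Pcsk6 and the adipocyte marker Pparg changed their call under the block. The depth, 80 to 212 fragments for Pdgfb and 106 to 208 for Pdgfd, limits what can be said of these ligands.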
